A study of Mus musculus with 6 samples.

Results

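Oxidative phosphorylation subunits are the nuclear-encoded proteins of the mitochondrial respiratory chain and ATP synthase, and they are described here by complex. Members were all array probes whose platform gene symbol begins with Nduf followed by a, b, c, s or v and a digit (complex I), is Sdha, Sdhb, Sdhc or Sdhd (complex II), or begins with Uqcr (complex III), Cox and a digit from 4 to 8 (complex IV) or Atp5 (complex V). This took 118 of the 45281 probes, for 78 gene symbols: 51 probes of complex I, 7 of complex II, 10 of complex III, 21 of complex IV and 29 of complex V. The rule used names and no measured value. It leaves out the subunits encoded by mitochondrial DNA and takes in a few genes by name alone. One is Ndufs5-ps, annotated as a pseudogene, and another is Ndufa4, whose protein is now placed in complex IV.

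Endothelial-enriched RNA was measured on 6 bead arrays. Its source was carotid artery of C57Bl/6J WT mice under disturbed flow (3 arrays) or stable flow (3 arrays). All samples share strain and genotype, and the labels name no transgene and no drug. The labels give neither the animals' age nor whether a sample is 1 animal or a pool, so each p-value rests on a spread that may be partly technical. The endothelial markers Pecam1 and Cdh5 each had a probe above background on 6 arrays, and 9 of 10 endothelial marker genes were tested, all but Kdr. Markers of other vessel wall cells were present too, with 4 of 8 smooth muscle genes and 5 of 7 fibroblast and adventitia genes tested. The mean log2 intensity of those 5 genes was 5.51, 5.85 and 5.87 on the disturbed flow arrays. On the stable flow arrays it was 6.44, 4.84 and 6.08. The groups follow the sample descriptions, which name the scanned arrays. All 6 columns of the authors' second, processed table follow in rank order an array described as the other group (rank correlation 1), so under that table's names the difference takes the opposite sign for 41 of the 42 member probes for which it was recomputed, and the files do not settle which is right. All disturbed flow arrays lay on 1 slide and all stable flow arrays on another, and the effects of slide and flow cannot be told apart.

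In the inner mitochondrial membrane, complexes I and II pass electrons from NADH and succinate to ubiquinone, complex III passes them on to cytochrome c, and complex IV hands them to oxygen. Complexes I, III and IV pump protons, and complex V, the ATP synthase, uses the gradient to make ATP. Vascular endothelium draws much of its ATP from glycolysis, and its mitochondria are also known for signalling and for making reactive oxygen species. Several complex IV subunits exist as paired genes, one expressed in most tissues and the other mainly in heart and skeletal muscle, lung or testis.

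The control regions of these genes are known for binding sites of NRF1 and of ETS-family factors such as GABP, and of YY1 and the ERR nuclear receptors. RefSeq promoter windows (GRCm38.p6, 250 bases before to 50 bases after the start) were matched for 64 of the 78 genes. The letters searched on both strands were GCGC and TGCGC separated by 1 base for NRF1, CCGGAAG for ETS factors, AAGATGGC for YY1 and TCAAGGTCA for ERR, and no match in a member window overlapped a match of another motif. The NRF1 letters were present in 16 of 64 (25%), against 1402 of 27039 genes (5.19%). The ETS letters were present in 16 of 64 (25%), against 2683 of 27039 genes (9.92%). The YY1 letters were present in 10 of 64 (15.6%), against 862 of 27039 genes (3.19%), and the ERR letters in 2 of 64 (3.12%), against 126 of 27039 genes (0.466%). These matches are a description of the letters in the windows, not of bound sites. Below are 4 windows, given as examples: those of the widely expressed Cox6a1 and Cox7a2, the membrane anchor Sdhd of complex II, and the muscle isoform Cox7a1. Each is written 5′ to 3′ on the gene's strand with motif matches in capitals.
Cox6a1, chr5:115348909-115349208, minus strand: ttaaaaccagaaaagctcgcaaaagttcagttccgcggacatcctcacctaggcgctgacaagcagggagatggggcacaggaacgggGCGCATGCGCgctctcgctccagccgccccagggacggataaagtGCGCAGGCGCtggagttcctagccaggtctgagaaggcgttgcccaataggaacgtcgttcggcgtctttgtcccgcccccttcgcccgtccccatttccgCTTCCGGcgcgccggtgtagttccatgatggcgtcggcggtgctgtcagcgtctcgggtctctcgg
Sdhd, chr9:50603800-50604099, minus strand: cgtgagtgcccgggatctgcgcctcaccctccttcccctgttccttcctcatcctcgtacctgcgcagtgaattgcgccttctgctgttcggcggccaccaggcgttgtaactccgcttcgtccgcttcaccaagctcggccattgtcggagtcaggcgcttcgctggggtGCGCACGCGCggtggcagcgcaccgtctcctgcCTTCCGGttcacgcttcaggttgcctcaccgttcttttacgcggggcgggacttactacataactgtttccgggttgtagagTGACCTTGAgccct
Cox7a2, chr9:79759804-79760103, minus strand: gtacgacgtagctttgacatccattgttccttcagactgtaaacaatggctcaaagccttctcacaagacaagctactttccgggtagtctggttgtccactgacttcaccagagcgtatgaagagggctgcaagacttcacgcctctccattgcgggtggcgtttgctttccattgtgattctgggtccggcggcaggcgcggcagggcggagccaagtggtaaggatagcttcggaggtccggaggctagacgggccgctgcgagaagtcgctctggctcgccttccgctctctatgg
Cox7a1, chr7:30183921-30184220, plus strand: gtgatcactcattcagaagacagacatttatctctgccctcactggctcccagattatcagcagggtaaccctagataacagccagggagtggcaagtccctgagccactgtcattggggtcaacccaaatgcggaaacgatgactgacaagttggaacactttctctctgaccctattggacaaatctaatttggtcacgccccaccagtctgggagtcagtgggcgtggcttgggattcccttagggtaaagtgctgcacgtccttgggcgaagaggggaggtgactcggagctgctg
The Cox6a1 window holds 2 NRF1 matches and 1 ETS match, and the Sdhd window holds 1 match each for NRF1, ETS and ERR. The windows of Cox7a2 and Cox7a1 hold none of the 4 motifs, and Cox7a2 was above background on 5 arrays while Cox7a1 was so on 0. Of the 6 member genes above background on no array, 3 had a window, and none of the 4 motifs was in any of the 3. Of the 59 genes with a window and above background on at least 3 arrays, 27.1% held the NRF1 letters and 25.4% the ETS letters. The YY1 letters were in 16.9% of them and the ERR letters in 3.39%. Atp5b and Cox5b, above background on 6 arrays, held none of the 4 motifs either. The 3 windows are too few to relate motifs to detection.

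Most subunits of the respiratory chain were detected. A probe counts as above background on an array where the deposited detection p-value, a comparison with negative control beads, is under 0.05. Of the 118 member probes, 94 (79.7%) were above background on at least 3 of the 6 arrays, which is the condition for testing, and 35 were so on all 6. Over all 45281 probes 27.7% met the condition. At gene level 69 of 78 member genes had such a probe: 33 of 35 in complex I, all 4 in complex II, all 7 in complex III, 9 of 16 in complex IV and all 16 in complex V. A probe could meet the condition through 1 group alone. Only the dimmer Uqcrq probe did, above background on 3 disturbed flow arrays and 0 stable flow arrays, and no fold is given for it because its bright values lay under the bound for the dim ones.

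Detection differed widely among the arrays of each group. Member probes above background numbered 96, 94 and 75 of 118 on the disturbed flow arrays, against 97, 42 and 83 on the stable flow arrays. As a share of the members this was 81.4%, 79.7% and 63.6% on the disturbed flow arrays and 82.2%, 35.6% and 70.3% on the stable flow arrays. The same order of arrays held over all probes, with 34.7%, 29.7% and 19.6% against 35.0%, 9.74% and 24.6%. The fewest detected subunits were on stable flow replicate 2. Complex I probes above background numbered 46, 47 and 35 of 51 on the disturbed flow arrays, against 47, 15 and 41 on the stable flow arrays. In complex II the counts were 7, 7 and 4 of 7 on the disturbed flow arrays, against 7, 3 and 5 on the stable flow arrays. In complex III they were 9, 8 and 8 of 10 on the disturbed flow arrays, against 8, 5 and 6 on the stable flow arrays. Complex IV differed from this pattern in that 12 of its 21 probes were above background on each of 5 arrays and 8 on stable flow replicate 2. In complex V the counts were 22, 20 and 16 of 29 on the disturbed flow arrays, against 23, 11 and 19 on the stable flow arrays.

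**Figure D1:**
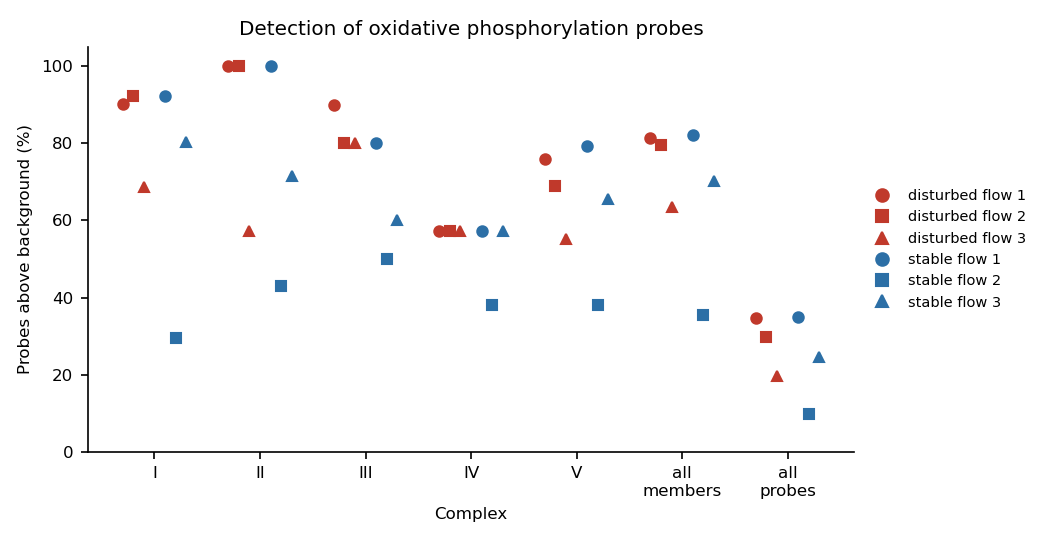
Percent of probes above background (vertical axis) for complexes I to V, all members and all probes; each point is 1 array, red for disturbed flow and blue for stable flow, with the symbol giving the replicate. Stable flow replicate 2 (blue square) is the lowest point in every column, at 35.6% of all members, and 5 of the 6 complex IV points coincide at 57.1%.

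Most complex IV probes at background on every array belonged to tissue isoforms. There were 8 such probes, among them 1 of Cox6b2 and 1 of the widely expressed Cox5b (ILMN_1227230), which has other probes above background. Cox4i2, the isoform known from lung, Cox6a2, Cox7a1 and Cox8b, known from heart and skeletal muscle, and Cox7b2 and Cox8c, known from testis, were above background on 0 of 6 arrays. These were the only 6 of the 78 member genes with no array above background. For Cox4i2 the raw signal was 82.3, 75.5 and 75.3 on the disturbed flow arrays, against 99.7, 86.5 and 89.4 on the stable flow arrays, and its smallest detection p-value was 0.52. For Cox7a1 it was 89.0, 79.1 and 83.8 on the disturbed flow arrays, against 112, 84.7 and 100.5 on the stable flow arrays, with a smallest detection p-value of 0.11. These values lie close to the arrays' median signals over all probes, which were 88.5, 77.6 and 80.9 on the disturbed flow arrays and 109.6, 88.5 and 101.2 on the stable flow arrays. The testis isoform Cox6b2 was above background for 1 of 2 probes on 1 array, stable flow replicate 2.

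The widely expressed partners that had a member probe were detected. Cox8a, the widely expressed partner of Cox8b and Cox8c, had no member probe, so nothing is known of it here. Cox4i1, Cox6a1 and Cox6b1 had a probe above background on 6 arrays, and Cox7a2 and Cox7b on 5, all but stable flow replicate 2. The raw signal of Cox4i1 was 400, 415 and 135 on the disturbed flow arrays, against 561, 97.7 and 319 on the stable flow arrays. On all 6 arrays Cox4i1 was thus above background while Cox4i2 was not. The raw signals of Cox4i2 were lower on all disturbed flow arrays than on all stable flow arrays, while its normalized values, like both kinds of values of Cox4i1, overlapped between the groups. Markers of skeletal and cardiac muscle were largely at background too: 0 of 10 genes with a probe were tested, and Ckm, Acta1, Mb, Myh1, Tnni2 and Tnnt3 were above background on 0 arrays. All 4 brown adipocyte markers, Ucp1, Cidea, Elovl3 and Cox8b itself, were also above background on 0 arrays. A probe at background gives only an upper bound on its transcript.

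**Figure D2:**
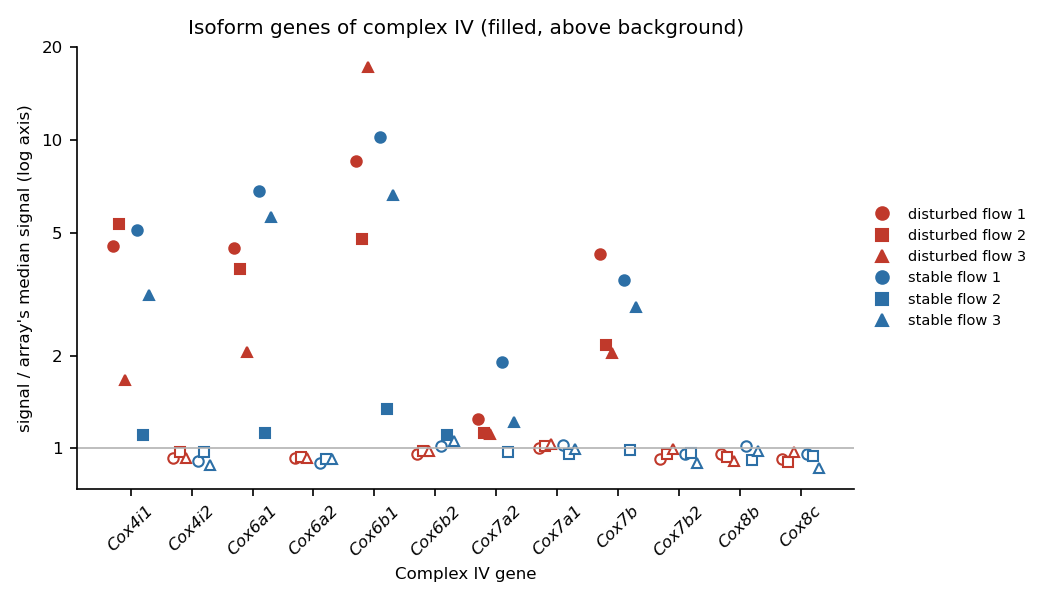
Raw signal of complex IV isoform genes divided by the array's median signal over all probes (logarithmic axis); each point is 1 array, red for disturbed flow and blue for stable flow, filled where the probe was above background, with the probe of highest mean shown for each gene. Cox4i2, Cox6a2, Cox7a1, Cox7b2, Cox8b and Cox8c are open on all 6 arrays near a ratio of 1, and levels are not to be compared between genes because each has its own probe.

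The levels of the tested subunits overlapped between the groups in every complex. Levels are log2 intensities after background correction and quantile normalization, and for each array the median over the tested probes of a complex is given. In complex I (46 probes) the medians were 6.14, 6.26 and 5.81 on disturbed flow replicates 1, 2 and 3, against 6.24, 4.79 and 6.59 on stable flow replicates 1, 2 and 3. Stable flow replicate 2 was the lowest array and stable flow replicate 3 the highest, so the stable flow arrays spanned the disturbed flow arrays. In complex II (7 probes) they were 4.99, 5.46 and 5.18 on disturbed flow replicates 1, 2 and 3, against 5.52, 4.69 and 5.80 on stable flow replicates 1, 2 and 3. In complex III (9 probes) they were 6.31, 5.75 and 6.48 on disturbed flow replicates 1, 2 and 3, against 6.47, 6.12 and 6.01 on stable flow replicates 1, 2 and 3, and here disturbed flow replicate 2 was the lowest. In complex IV (12 probes) they were 7.61, 7.06 and 7.40 on disturbed flow replicates 1, 2 and 3, against 7.98, 6.08 and 7.80 on stable flow replicates 1, 2 and 3. In complex V (20 probes) they were 7.47, 7.20 and 6.83 on disturbed flow replicates 1, 2 and 3, against 7.49, 6.26 and 7.25 on stable flow replicates 1, 2 and 3. In complexes I, II, IV and V stable flow replicate 2 lay below all other arrays. Over all 94 tested members the mean of the array medians was 6.33 ± 0.19 under disturbed flow and 6.24 ± 0.75 under stable flow (SD, n = 3 each), and 6.67 under stable flow without replicate 2. Over all 12546 tested probes the medians were 5.33, 5.34 and 5.32 on disturbed flow replicates 1, 2 and 3, against 5.37, 4.67 and 5.35 on stable flow replicates 1, 2 and 3. Endothelial markers were also lowest on stable flow replicate 2, with a mean log2 intensity of 7.83, 7.91 and 7.64 on the disturbed flow arrays and 7.91, 7.20 and 7.55 on the stable flow arrays over 9 tested genes, and the part of this in the members' levels was not tested. In RNA from a mixed tissue sample, fewer cells of a type and less RNA per cell cannot be told apart.

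**Figure D3:**
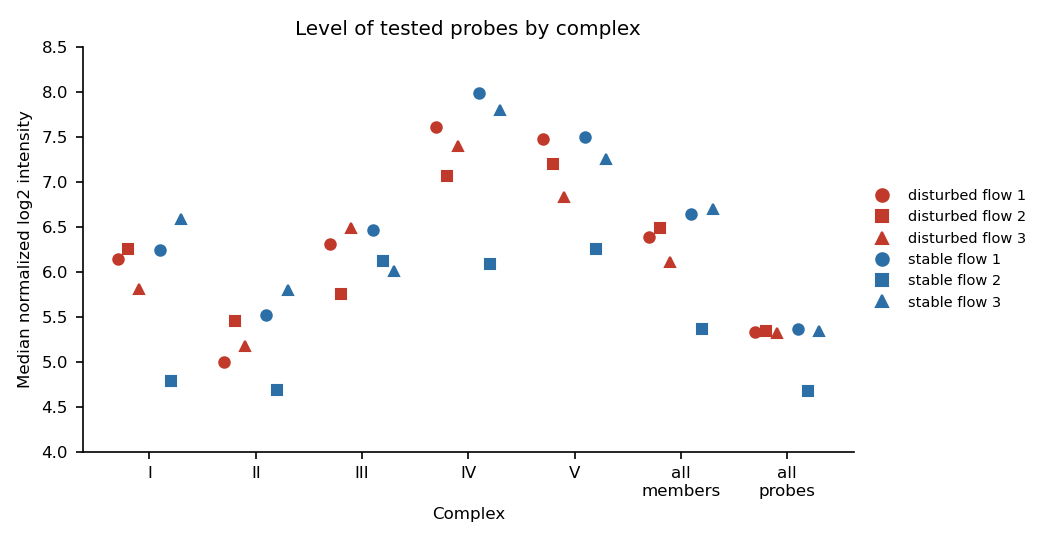
Median normalized log2 intensity over the tested probes of each complex, of all members and of all tested probes; each point is 1 array, red for disturbed flow and blue for stable flow. Stable flow replicate 2 (blue square) is lowest in complexes I, II, IV and V, and the remaining stable flow arrays lie at or above most disturbed flow arrays in complexes I, II and IV.

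Ranks of the raw signal within each array are given as well. Background correction and quantile normalization keep the order of probes within an array, so these ranks are no separate check on the levels. The median tested member ranked above 93.0%, 93.4% and 91.6% of probes on the disturbed flow arrays, and above 94.1%, 85.7% and 94.3% on the stable flow arrays. Over all tested probes the median rank was 85.4%, 85.5% and 85.3% on the disturbed flow arrays. On the stable flow arrays it was 85.8%, 72.2% and 85.5%, so the fall on replicate 2 was not particular to the members. After normalization, the lowest log2 intensity was on stable flow replicate 2 for 55 of the 94 tested member probes (58.5%), against 50.2% of all tested probes. In complex I it was lowest for 30 of 46 probes, in complex IV for 8 of 12 and in complex V for 9 of 20. Among other large sets of subunit genes, stable flow replicate 2 was lowest for 20 of 70 cytosolic ribosomal protein probes (28.6%) and for 39 of 59 constitutive proteasome probes (66.1%). These shares are descriptions, since probes of a set share their arrays.

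No subunit passed the test between disturbed and stable flow. The limma fit over 12546 probes put 0 of them (0%), and so 0 of the 94 tested member probes, under an adjusted p of 0.05, and the smallest adjusted p of a member was 0.890. At an unadjusted p under 0.05 there was 1 member probe, of Sdha, which was lower, against 338 of all tested probes (2.69%), 194 higher (1.55%) and 144 lower (1.15%). Differences are disturbed flow minus stable flow on the log2 scale. Of the members 55 were higher and 39 lower, so 58.5% were higher, against 57.4% of all tested probes. The median difference was 0.17 over the members and 0.098 over all tested probes. By complex it was 0.24 in complex I (28 higher, 18 lower), 0.14 in complex II (4 higher, 3 lower), 0.39 in complex III (7 higher, 2 lower), 0.033 in complex IV (6 and 6) and -0.0018 in complex V (10 and 10). When arrays were scaled to a common 75th percentile instead, the median was 0.40 in complex I, 0.16 in complex II, 0.39 in complex III, 0.73 in complex IV, 0.55 in complex V and 0.46 over the members, against 0.21 over all tested probes. Over all 118 member probes, without the filter, the median was 0.024.

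Single arrays turned the sign of these medians. Without stable flow replicate 2 the median was -0.12 over the members, -0.16 in complex I, -0.094 in complex II, -0.29 in complex IV and -0.20 in complex V, against -0.011 over all tested probes. Without disturbed flow replicate 2 it was -0.0088 over the members, -0.0090 in complex I and -0.13 in complex II. Complex IV was also below 0 without disturbed flow replicate 1 (-0.086) or 3 (-0.080). Complex V was above 0 without disturbed flow replicate 3 (0.34) or stable flow replicate 1 (0.19) or 3 (0.20). Complex III kept a median above 0 whichever single array was left out, from 0.32 to 0.58. With all arrays its median of 0.39 was the value of the dimmer Uqcrq probe. That probe was above background on 0 stable flow arrays and met the filter through disturbed flow alone. The 7 higher probes of complex III included 2 each of Uqcr10 and Uqcrq. The precision was low: the median SE of a member's difference was 0.58, the median half-width of its 95% interval was 1.36, and the interval lay within -1 to 1 for 3 of 94 member probes. A change of 1 log2 unit of most subunits could therefore not be told from none with these arrays.

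**Figure D4:**
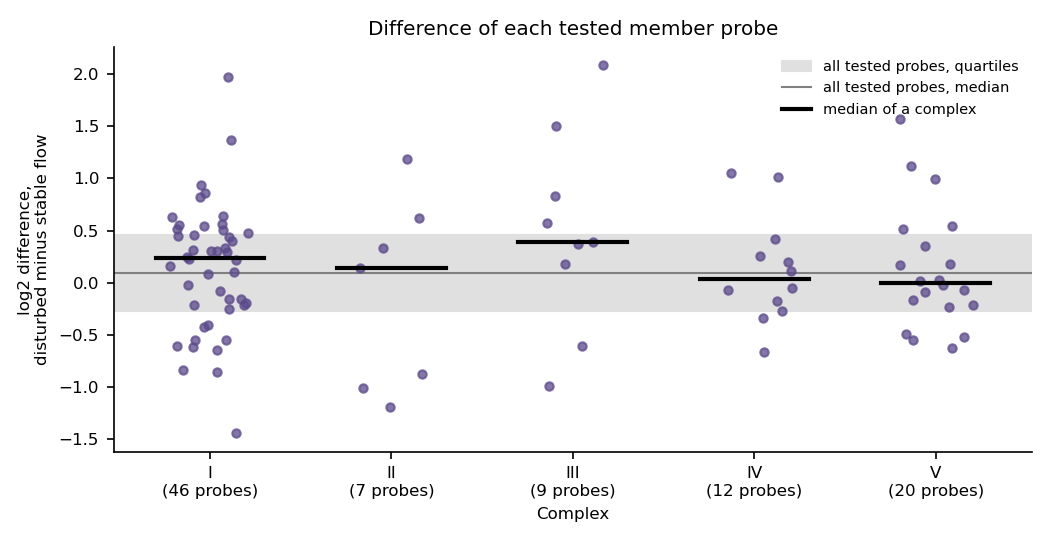
Difference in log2 intensity, disturbed flow minus stable flow, for each of the 94 tested member probes by complex; black bars are medians of a complex, and the grey line and band are the median and quartiles of all 12546 tested probes. The medians of the 5 complexes lie inside the grey band, and single probes reach from -1.44 (Ndufs7) to 2.08 (Uqcr10).

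In complex I, the NADH dehydrogenase, subunits of the catalytic arm had overlapping groups. Ndufv1 (probe ILMN_2702704), the flavin-bearing subunit that accepts electrons from NADH, had 6.26, 5.92 and 6.25 on the disturbed flow arrays, against 6.58, 4.72 and 6.13 on the stable flow arrays. The lowest value was on stable flow replicate 2, and the other arrays overlapped between the groups. The difference was 0.33 (SE 0.52, 95% interval -0.89 to 1.54), and -0.22 without that array. Ndufs7 (probe ILMN_2688763), an iron-sulfur subunit close to the ubiquinone site, had 5.40, 4.97 and 4.40 on the disturbed flow arrays, against 7.70, 4.38 and 7.02 on the stable flow arrays. Stable flow replicates 1 and 3 were high and replicate 2 was as low as disturbed flow replicate 3, so the groups overlapped. Its difference of -1.44 (SE 0.84, 95% interval -3.40 to 0.52) was the lowest of all members (limma adjusted p = 0.890), and the probe was above background on 2 arrays of each group. Ndufs1, the largest iron-sulfur subunit, was above background on only 2 arrays, both of stable flow, and was not tested.

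Among accessory subunits of complex I, Ndufa9 (probe ILMN_2657694) differed by -0.19 (SE 0.72) and Ndufa4 (probe ILMN_2666061) by -0.16 (SE 0.40). The brighter Ndufa3 probe differed by -0.41 (SE 0.86). The probe with the smallest p among the higher ones was Ndufv3 (probe ILMN_2668977), with 6.16, 7.79 and 6.00 on the disturbed flow arrays, against 6.01, 4.45 and 5.38 on the stable flow arrays. Disturbed flow replicate 2 stood highest and stable flow replicate 2 lowest. The difference was 1.37 (SE 0.62, 95% interval -0.078 to 2.82), with a limma adjusted p of 0.890, and the brighter Ndufv3 probe gave 0.54 (SE 0.59). Ndufa7 (probe ILMN_2629044) was the 1 complex I probe whose groups did not overlap, with 5.08, 5.32 and 4.99 on the disturbed flow arrays, against 5.49, 5.63 and 5.56 on the stable flow arrays. All disturbed flow values were lower, with a difference of -0.43 (SE 0.31). The highest Ndufa7 value, on stable flow replicate 2, was not above background there, with a raw signal of 95.6 against an array median of 88.5.

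Complex II, succinate dehydrogenase, links the tricarboxylic acid cycle to the chain, and its subunits had differences of both signs. Sdha (probe ILMN_1240450), the flavoprotein that oxidises succinate, had 4.75, 5.39 and 4.70 on the disturbed flow arrays, against 5.52, 6.14 and 5.80 on the stable flow arrays. Each disturbed flow value lay below each stable flow value. The highest value, on stable flow replicate 2, came from a raw signal of only 97.4 against an array median of 88.5. On disturbed flow replicate 3 the Sdha probe was not above background. The difference was -0.87 (SE 0.36, 95% interval -1.73 to -0.015), with a limma adjusted p of 0.890, and it ranged from -1.09 to -0.71 when single arrays were left out. Sdhd (probe ILMN_1239143), a membrane anchor that helps to bind ubiquinone, had 8.58, 9.14 and 7.31 on the disturbed flow arrays, against 7.56, 7.06 and 6.85 on the stable flow arrays. The groups overlapped through disturbed flow replicate 3 and stable flow replicate 1. The difference was 1.19 (SE 0.52, 95% interval -0.038 to 2.41). Sdhb (probe ILMN_2769065), the iron-sulfur subunit, differed by 0.14 (SE 0.43). Another Sdhb probe (ILMN_2769064) differed by 0.62 (SE 0.33) without overlap of the groups, and the remaining one (ILMN_2592389) by 0.33 (SE 0.39) with overlap. Probe ILMN_2769064 was above background on 3 disturbed flow arrays but only 1 stable flow array. The flavoprotein and a membrane anchor of the same complex thus had differences of opposite sign, neither past the test over all probes.

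In complex III, the cytochrome bc1 complex, the 2 large core proteins differed little between the groups relative to their spread. Uqcrc1 (probe ILMN_1256673) averaged 5.46 ± 0.22 under disturbed flow against 5.09 ± 0.68 under stable flow (SD, n = 3 each), a difference of 0.37 (SE 0.43), and Uqcrc2 (probe ILMN_2435140) averaged 6.75 ± 0.61 under disturbed flow against 6.57 ± 0.18 under stable flow, a difference of 0.18 (SE 0.40). Uqcrfs1 (probe ILMN_2473090), the Rieske iron-sulfur protein that passes electrons towards cytochrome c, had 4.65, 4.53 and 4.29 on the disturbed flow arrays, against 4.58, 6.15 and 4.56 on the stable flow arrays. It stood apart on stable flow replicate 2 alone, and the difference of -0.61 (SE 0.50) was -0.084 without that array. Uqcrh (probe ILMN_2512849), the hinge protein, had 6.43, 5.75 and 6.61 on the disturbed flow arrays, against 7.71, 7.54 and 6.51 on the stable flow arrays. It was the lower probe with the smallest p of this complex, differing by -0.99 (SE 0.45, 95% interval -2.05 to 0.067), and stable flow replicate 3 lay among the disturbed flow values. Uqcrq (probe ILMN_1252263), a small subunit, had 4.97, 4.74 and 5.62 on the disturbed flow arrays, against 4.55, 4.59 and 4.48 on the stable flow arrays, so its groups did not overlap. Its difference was 0.57 (SE 0.36). This probe was above background on 3 disturbed flow arrays but only 1 stable flow array, so its stable flow values lay mostly at background.

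In complex IV, cytochrome c oxidase, Cox4i1 (probe ILMN_2600274), the widely expressed form of the largest nuclear-encoded subunit, had 7.81, 8.27 and 7.32 on the disturbed flow arrays, against 8.16, 6.23 and 7.75 on the stable flow arrays. The lowest value was on stable flow replicate 2, and stable flow replicate 1 lay within the disturbed flow values. The difference was 0.42 (SE 0.57, 95% interval -0.91 to 1.75), and -0.16 without stable flow replicate 2. Cox6a1 (probe ILMN_2605400) had 7.78, 7.77 and 7.78 on the disturbed flow arrays, against 8.74, 6.70 and 8.71 on the stable flow arrays. The disturbed flow values were nearly equal while the stable flow values lay on both sides of them, and the difference was -0.27 (SE 0.58). Cox5a (probe ILMN_2682800) differed by 0.26 (SE 0.41) and Cox7a2 (probe ILMN_2733698) by -0.049 (SE 0.47). The smallest p among the higher probes was that of Cox5b (probe ILMN_2772319), with a difference of 1.05 (SE 0.54, 95% interval -0.23 to 2.33), while its brighter probe gave 0.20 (SE 0.49). Among the lower probes it was that of Cox6b1 (probe ILMN_2616405), with 6.89, 6.87 and 7.47 on the disturbed flow arrays, against 7.88, 7.74 and 7.61 on the stable flow arrays. The groups did not overlap, and the difference was -0.67 (SE 0.34). The brighter Cox6b1 probe gave 0.11 (SE 0.61), so the probes of this gene did not bear each other out.

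In complex V, Atp5b (probe ILMN_2598972), the catalytic beta subunit, had 9.0, 8.30 and 8.03 on the disturbed flow arrays, against 8.88, 8.48 and 8.24 on the stable flow arrays. The values of both groups ran over nearly the same range, and the difference was -0.093 (SE 0.39, 95% interval -1.01 to 0.83). Atp5a1 (probe ILMN_2633229), the alpha subunit of the same head, differed by 0.17 (SE 0.53), and Atp5c1 (probe ILMN_1249783), the gamma subunit of the rotating stalk, by 0.52 (SE 0.39). The smallest p among the higher probes was that of Atp5l (probe ILMN_2973897), a membrane subunit, with 5.72, 7.85 and 7.58 on the disturbed flow arrays, against 6.39, 4.36 and 5.69 on the stable flow arrays. Disturbed flow replicates 2 and 3 were high, and stable flow replicate 2 was low. The difference was 1.57 (SE 0.73, 95% interval -0.13 to 3.28), and the brighter Atp5l probe gave 0.54 (SE 0.56). Atp5e (probe ILMN_2604794), the epsilon subunit, had 7.79, 8.17 and 7.93 on the disturbed flow arrays, against 8.38, 8.26 and 8.89 on the stable flow arrays. All disturbed flow values lay below all stable flow values, with a difference of -0.55 (SE 0.34). The c-ring subunit gene Atp5g2 and the dimmest probe of Atp5j (ILMN_2611261) were lower without overlap too, with differences of -0.52 (SE 0.34) and -0.22 (SE 0.31).

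Over the members, all disturbed flow values lay above all stable flow values for 2 probes (Sdhb and Uqcrq) and below them for 6 (Ndufa7, Sdha, Cox6b1, Atp5e, Atp5g2 and Atp5j). That is 2 of 94 against 5.68% of all tested probes, and 6 of 94 against 4.00%. The 2 higher probes were each above background on only 1 stable flow array. Of the 6 lower ones, the Atp5j probe was above background on 2 disturbed flow arrays and only 1 stable flow array. The Ndufa7 probe was so on 2 stable flow arrays and the Sdha probe on 2 disturbed flow arrays. The Cox6b1, Atp5e and Atp5g2 probes were above background on all 6 arrays. With arrays scaled to a common 75th percentile the differences of Cox6b1, Atp5e and Atp5g2 took the opposite sign (0.22, 0.53 and 0.028). The probes without overlap, like the probes with 1 high array below, were singled out after their values were seen.

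Several subunits were high on a single array, and the array differed from gene to gene. For 16 tested member probes of 11 genes the highest array stood at least 1.5 log2 units above the next one. That is 17.0% of the members, against 14.5% of all tested probes, so the share was near the background. Without background correction there were 6 such member probes, against 4.9% of all tested probes. By complex the 16 were 10 of 46 probes in complex I, 2 of 7 in complex II, 3 of 9 in complex III, 0 of 12 in complex IV and 1 of 20 in complex V. Uqcr10, a small subunit of complex III, had 10.49, 6.88 and 7.19 on the disturbed flow arrays, against 7.11, 6.23 and 6.71 on the stable flow arrays with probe ILMN_2636384. Its other probe (ILMN_3142224) had 10.18, 6.54 and 6.75 on the disturbed flow arrays, against 6.62, 4.58 and 6.01 on the stable flow arrays. Both probes placed disturbed flow replicate 1 more than 3 units above every other array, by 3.30 and 3.42, and the other 5 arrays overlapped between the groups. The differences of 1.5 (SE 0.93, 95% interval -0.67 to 3.67) and 2.08 (SE 1.03, 95% interval -0.32 to 4.49) were the largest of complex III and became 0.35 and 0.91 without that array.

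Sdhc, the other membrane anchor of complex II, was high on stable flow replicate 3 instead. Its brighter probe (ILMN_2594149) had 8.13, 7.74 and 8.25 on the disturbed flow arrays, against 8.59, 8.20 and 10.90 on the stable flow arrays. Its other probe (ILMN_1256125) had 6.19, 5.53 and 6.29 on the disturbed flow arrays, against 6.70, 4.69 and 9.63 on the stable flow arrays. The gaps to the next array were 2.31 and 2.93. The differences of -1.19 (SE 0.70) and -1.0 (SE 1.12) became -0.35 and 0.31 without that array. The accessory subunit Ndufb8 (probe ILMN_2621966) had 11, 7.17 and 8.02 on the disturbed flow arrays, against 8.62, 8.60 and 7.75 on the stable flow arrays, so disturbed flow replicate 1 stood 2.37 above the next array and the difference of 0.40 (SE 0.93) became -0.73 without it. Its second probe (ILMN_2501071) was above background on 0 arrays.

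For the other 8 genes the gap was between 1.5 and 2.36. Disturbed flow replicate 1 was the high array for Ndufa5 (2.36) and for Atp5d (2.01), the delta subunit of ATP synthase. Disturbed flow replicate 2 was high for Ndufs5-ps (2.16) and for both Ndufv3 probes (1.71 and 1.62). Stable flow replicate 1 was high for both Ndufa8 probes (2.12 and 2.10), and stable flow replicate 3 for both Ndufa3 probes (2.01 and 1.83). High values on stable flow replicate 2 were those of Ndufb11 (1.77) and of Uqcrfs1 (1.5), although there the raw signals were only 100.7 and 97.4 against an array median of 88.5. Differences between the groups for these genes were 0.93 for Ndufa5, 1.12 for Atp5d, 0.44 for Ndufs5-ps, -0.64 and -0.25 for Ndufa8, -0.84 and -0.41 for Ndufa3, and -0.55 for Ndufb11. On disturbed flow replicate 1 the macrophage and monocyte markers were high as well. Of 8 such genes 2 passed the filter, with a mean log2 intensity of 8.05 on that array, against 4.87 and 4.60 on the other disturbed flow arrays and 5.12, 4.81 and 5.95 on the stable flow arrays, and C1qa was above background on 0 arrays. The part of these markers in the subunits' high values was not tested.

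**Figure D5:**
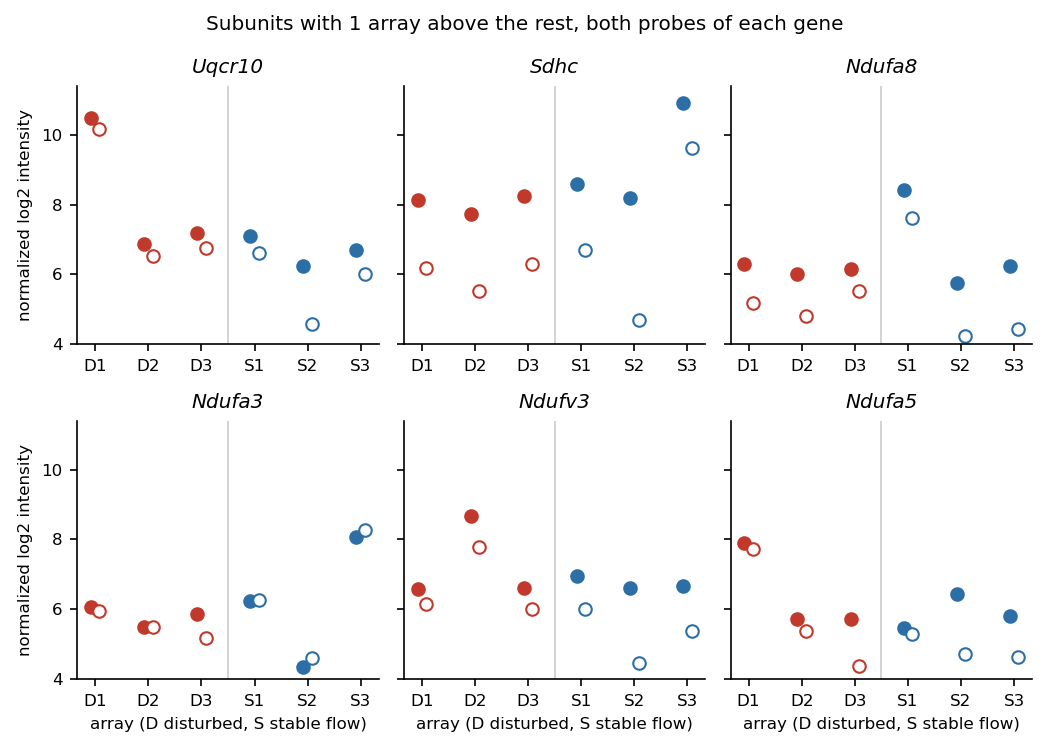
Normalized log2 intensity of 6 subunit genes on disturbed flow arrays (D1 to D3, red) and stable flow arrays (S1 to S3, blue); the filled point is the probe with the higher mean and the open point the other probe of the same gene. Uqcr10 and Ndufa5 are highest on D1, Ndufv3 on D2, Ndufa8 on S1, and Sdhc and Ndufa3 on S3, with both probes of each gene.

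Probes of the same gene usually shared their highest array. Of the 21 member genes with more than 1 tested probe, all probes were highest on the same array for 15 (71.4%), against 584 of 2335 genes over the whole array (25%). Their differences between the groups had the same sign for 16 of 21 (76.2%), against 1160 of 2335 (49.7%). These shares are descriptions, since probes of a gene share their arrays. Exceptions were Atp5j, Cox6b1, Ndufs4 and Ndufs6, whose probes disagreed both in their highest array and in the sign of the difference. For Ndufs6, an accessory subunit of complex I, the bright probe (ILMN_2842572) gave 1.98 (SE 0.90) and the dim one (ILMN_1233115) -0.018 (SE 0.33).

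Other genes of mitochondrial energy metabolism did not pass the test either. Of 48 assembly factors of the complexes 29 were tested, 15 higher and 14 lower, with a median of 0.048 and 0 past the test. Of 17 genes of the tricarboxylic acid cycle and pyruvate dehydrogenase 14 were tested, 6 higher and 8 lower, with a median of -0.063 and 0 past the test. Ogdh, of the oxoglutarate dehydrogenase complex, had the smallest p among the higher ones and differed by 1.57 (SE 0.48, limma adjusted p = 0.890). Among the lower ones it was Sucla2, which differed by -0.94 (SE 0.66). Of 16 genes that control mitochondrial gene expression 11 were tested, 4 higher and 7 lower, with a median of -0.24 and 0 past the test, and the coactivator genes Ppargc1a and Ppargc1b were above background on 0 arrays. Of 20 carriers and import genes 18 were tested, 12 higher and 6 lower, with a median of 0.25 and 0 past the test. Slc25a5, an ADP/ATP carrier, differed by 1.32 (SE 0.65), and Phb2, with the smallest p among the lower ones, by -0.67 (SE 0.43). The 6 tested electron carriers and remaining subunits, 2 higher and 4 lower, had a median of -0.30 and 0 past the test. The median over all tested probes was 0.098.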

How the data were processed

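Illumina bead arrays were read as 2 deposited tables. The first holds 1 signal intensity per probe and array and a detection p-value, per the file headers, with no background subtraction or normalization by the authors visible in the values. The second holds processed intensity values of the same arrays, as the authors deposited them, some below 0. The submitters' processing notes list GenomeStudio 2011.1. No source used here states its settings.

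Signals were background-corrected from the detection p-values, an offset of 16 was added, and quantile normalization was applied before taking log2, with limma 3.58.1 (R 4.3.3). Log2 values are thus computed here, from intensities the authors deposited. Probes above background on at least 3 of 6 arrays entered 1 limma model (lmFit, then eBayes; two-sided tests), and p-values were adjusted by Benjamini-Hochberg over all 12546 of them. Names came from the platform annotation: 18 probes with several symbols were left unnamed, 34885 had 1 symbol and 10378 none. Where a gene has several tested probes, the brightest stands for it. The text names a fixed set of 26 subunits (23 with a probe, 18 tested), the smallest p in each direction in complexes I, III, IV and V, the probes without overlap or with 1 high array, and at most 2 genes of a list. Members and lists were chosen with earlier results of these data known. No batch could be separated from the groups. The number of arrays limits the precision. Replicate numbers gave no sign of pairing: same-numbered arrays' deviations correlated at -0.035, -0.074 and -0.085. With 3 arrays per group this cannot exclude a pairing, and pairings other than by replicate number were not fitted. The fit was tested on simulated data. The alternatives are given at the end.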

Additional observations from a re-analysis of the deposited data

How the results depend on the processing

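The number of member probes past the adjusted threshold was 0 under all 14 alternatives tried for the fit. At an unadjusted p under 0.05 the member probes numbered from 0 (detected on all 6 arrays, and the processed table) to 9 of 94 (array weights). Over all tested probes the counts under these settings were 94 of 2500, 317 of 12546 and 658 of 12546. Among the 14 alternatives, the fit with the replicate block had 2 member probes at an unadjusted p under 0.05, against 329 of all 12546 tested probes. No sample pairing is known to stand behind that block. Leaving out 1 array at a time moved the median difference over -0.16 to 0.50 in complex I, -0.13 to 0.45 in complex II, 0.32 to 0.58 in complex III, -0.29 to 0.28 in complex IV, -0.20 to 0.34 in complex V and -0.12 to 0.34 over the members. Scaling to a common 75th percentile gave a median of 0.55 in complex V, 0.73 in complex IV and 0.46 over the members, and with the processed table's own column names complex III had -0.41. With array weights the median was -0.018 over the members, -0.044 in complex I, -0.22 in complex IV and -0.043 in complex V. In complexes II and III it was 0.10 and 0.41 with these weights. Over the member probes above background on all 6 arrays it was -0.066. With a detection p under 0.01 the members above background were 70.3% on disturbed flow replicate 2 and 17.8% on stable flow replicate 2. Without background correction 6 member probes, not 16, had a highest array at least 1.5 units above the next (4.9% of all tested probes), and the Uqcr10 gaps were 2.69 and 2.66. That alternative was chosen after the data were seen. The cause of these changes was not tested, and a slide term could not be fitted. Of the 42 member probes recomputed under each setting, 41 had the opposite sign with the processed table's names: 0.38 and 0.74 for Ndufa3, 0.15 for Ndufa4, -0.73 for Ndufa5, 0.30 for Ndufa7, 0.58 and 0.16 for Ndufa8, 0.22 for Ndufa9, 0.44 for Ndufb11, -0.42 for Ndufb8, -0.44 for Ndufs5-ps, 1.16 for Ndufs7, -0.23 for Ndufv1, -1.09 and -0.50 for Ndufv3, 0.62 for Sdha, -0.10 and -0.46 for Sdhb, 1.15 and 0.97 for Sdhc, -1.10 for Sdhd, -1.80 and -1.39 for Uqcr10, -0.31 for Uqcrc1, -0.17 for Uqcrc2, 0.49 for Uqcrfs1, 0.85 for Uqcrh, -0.41 for Uqcrq, -0.37 for Cox4i1, -0.19 for Cox5a, -0.81 for Cox5b, 0.27 for Cox6a1, 0.60 for Cox6b1, -0.10 for Atp5a1, 0.087 for Atp5b, -0.48 for Atp5c1, -0.93 for Atp5d, 0.52 for Atp5e, 0.43 for Atp5g2, 0.16 for Atp5j, -1.31 for Atp5l. Scaling to a common 75th percentile turned 6: 0.98 for Ndufa4, 0.53 for Cox6a1, 0.22 for Cox6b1, 1.04 for Atp5b, 0.53 for Atp5e, 0.028 for Atp5g2. Array weights turned 3: -0.054 for Ndufv1, -0.11 for Atp5a1, 0.052 for Atp5b. Leaving out single arrays turned the sign at least once for 21, with ranges of -1.34 to 0.52 and -1.73 to 0.11 for Ndufa3, -0.42 to 0.13 for Ndufa4, -0.022 to 1.66 for Ndufa5, -1.17 to 0.17 and -0.86 to 0.84 for Ndufa8, -0.98 to 0.54 for Ndufa9, -1.08 to 0.15 for Ndufb11, -0.73 to 1.18 for Ndufb8, -0.48 to 1.04 for Ndufs5-ps, -0.22 to 0.71 for Ndufv1, -0.15 to 0.89 for Ndufv3, -0.13 to 0.45 for Sdhb, -2.16 to 0.31 for Sdhc, -0.024 to 0.59 for Uqcrc1, -0.17 to 0.40 for Uqcrc2, -0.16 to 0.81 for Cox4i1, -0.95 to 0.073 for Cox6a1, -0.50 to 0.30 for Cox7a2, -0.38 to 0.58 for Atp5a1, -0.37 to 0.11 for Atp5b. No background correction, no filter, an offset of 50 and the block turned 0.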

Other observations

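The cytosolic ribosomal protein genes and the constitutive proteasome genes, 2 other large sets of subunits, gave values beside those of the respiratory chain. Ribosomal proteins form the cytosolic translation machinery, and the proteasome degrades tagged proteins. Of 70 tested ribosomal protein probes 37 were higher and 32 lower under disturbed flow, with a median of 0.05 and 0 past the test. Of 59 tested proteasome probes 42 were higher and 17 lower, with a median of 0.26 and 0 past the test. The highest array stood at least 1.5 log2 units above the next for 4 ribosomal protein probes (5.71%) and 5 proteasome probes (8.47%), against 16 respiratory chain probes (17.0%) and 14.5% of all tested probes. Without background correction the respiratory chain had 6, and the other sets were not recomputed. On stable flow replicate 2 the median log2 intensity was 8.38 over ribosomal protein probes and 4.61 over proteasome probes. On the other 5 arrays it was 8.10 to 8.72 and 5.82 to 6.04.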
